A study of Homo sapiens with 10 samples.

Results

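The AP-1 transcription factors measured here are the 10 genes FOS, FOSB, FOSL1, FOSL2, JUN, JUNB, JUND, ATF3, BATF3 and MAFF. They were taken by gene symbol from the platform annotation, and all 10 were found, each with 1 probe set, among 17687 named genes on the arrays. The samples were cultures of the human neuroblastoma cell lines SK-N-AS and SK-N-FI, grown in IMDM medium with serum. SK-N-AS cells treated with 30 µM of the conjugate for 48 h gave 3 arrays (numbered 28, 29 and 30), and SK-N-AS cells exposed to PBS gave 3 control arrays (25, 26 and 27). SK-N-FI cells treated with 30 µM BG-P1600-TAT for 48 h gave 2 arrays, and PBS-exposed SK-N-FI cells gave 2 control arrays. The series title describes BG-P1600-TAT as a PEG conjugate directed at the norepinephrine transporter and integrin αvβ3, and the SK-N-AS titles, which write BG-P-TAT, were read as the same compound. The design text speaks of 3 biological replicates for SK-N-FI, of which 2 arrays per arm were analysed here. For SK-N-AS nothing states whether the 3 arrays of an arm were independent cultures, and the p-values there rest on differences among arrays that may be technical only.

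AP-1 is not one protein but a family of dimers built from basic leucine zipper (bZIP) subunits. Jun proteins pair with themselves or with Fos proteins, and Fos proteins need a Jun partner to bind DNA, at the TPA response element TGACTCA or the related cyclic AMP response element TGACGTCA. FOS, FOSB, JUN and JUNB are immediate early genes that serum and mitogen-activated kinases switch on briefly, whereas FOSL1 and FOSL2 are later and longer-lived outputs of the same signal. In neuroblastoma, Fos-related and Jun factors are known as part of the regulatory circuit of mesenchymal-like cells, which lack the noradrenergic programme.

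Values are deposited log2 signals, and the level of background was set for each array from its 612 negative control probe sets (HTA2-neg), at their 95th percentile. That threshold lay between 6.75 and 7.23 in SK-N-AS and between 7.44 and 8.26 in SK-N-FI. Array medians differed between the lines (5.75 to 5.81 in SK-N-AS and 6.61 to 6.62 in SK-N-FI, over gene probe sets). The lines were therefore compared as deposited and after quantile normalization over all 10 arrays, while group means and single-array values are as deposited. After quantile normalization the thresholds were 7.23 to 7.96 in SK-N-AS and 6.73 to 7.38 in SK-N-FI. The part of that shift in the calls was not tested. No source tells a line effect from a run effect, and the 2 cannot be told apart. Positive control probe sets had array medians of 11.7 to 11.9 in SK-N-AS and 12.9 to 13.1 in SK-N-FI. The poly-A spikes had 6.53 to 7.23 in SK-N-AS and 7.33 to 7.60 in SK-N-FI. The hybridization spikes did not share that direction, with 10.5 to 11.3 in SK-N-AS and 10.3 to 10.6 in SK-N-FI. Negative control medians were 3.86 to 4.04 in SK-N-AS and 4.02 to 4.05 in SK-N-FI. Of 8 noradrenergic markers, 4 (HAND2, GATA3, ISL1 and CHGA) were above background on every SK-N-AS control array and 7 on every SK-N-FI control array, DBH, PHOX2A and SLC6A2 being those in SK-N-FI alone. Of 9 mesenchymal markers, 6 were above background on every SK-N-AS control array and 5 on every SK-N-FI control array. Of 4 fibroblast markers, DCN, LUM and PDGFRA were above background on all SK-N-AS arrays and COL1A1 on none. List means there were 10.5 to 11.8 per array. No marker of that list was above background on every array of an SK-N-FI group, with list means of 5.83 to 6.46. Of 4 blood cell markers, CD68 was above background on every SK-N-AS array, PTPRC on every treated but not every control SK-N-AS array, and the other 2 on none. None of the 4 was above background on any SK-N-FI array, and list means per array were 7.15 to 7.45 in SK-N-AS and 5.00 to 5.75 in SK-N-FI. The part of these differences in the comparison of the lines was not tested.

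The lines held different AP-1 subunits above background. Of all gene probe sets, 32.9% to 39.7% were above the threshold per SK-N-AS array as deposited, and 38.3% to 44.3% per SK-N-FI array. In SK-N-AS, FOSL1, FOSL2 and JUNB exceeded the negative controls on all 6 arrays and MAFF on 5 of 6. In SK-N-FI these 4 genes did so on 0 of 4 arrays, whereas JUND and ATF3 did so on 4 of 4. The SK-N-FI thresholds were the higher ones as deposited, and there JUNB and MAFF signals overlapped between the lines. JUNB was 7.05 to 7.85 in SK-N-AS and 6.98 to 7.62 in SK-N-FI. After quantile normalization both genes were higher on every SK-N-AS array. FOSL2 lay only 0.16 and 0.02 under the threshold on the SK-N-FI control arrays as deposited. JUND was above background on 0 of 6 SK-N-AS arrays and ATF3 on 3 of 6. JUN exceeded the threshold on 2 of 6 SK-N-AS arrays and 0 of 4 SK-N-FI arrays, and BATF3 on 0 of 6 and 2 of 4. FOS and FOSB stayed below it on all 10 arrays. For a gene below the threshold the signal sets only an upper bound on the transcript. These counts were the same after quantile normalization for each of the 10 genes. That scaling keeps the order of probe sets within an array, negative controls included, so it could hardly change them. In such bulk cultures, fewer cells expressing a gene and less RNA per cell cannot be told apart.

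**Figure D1:**
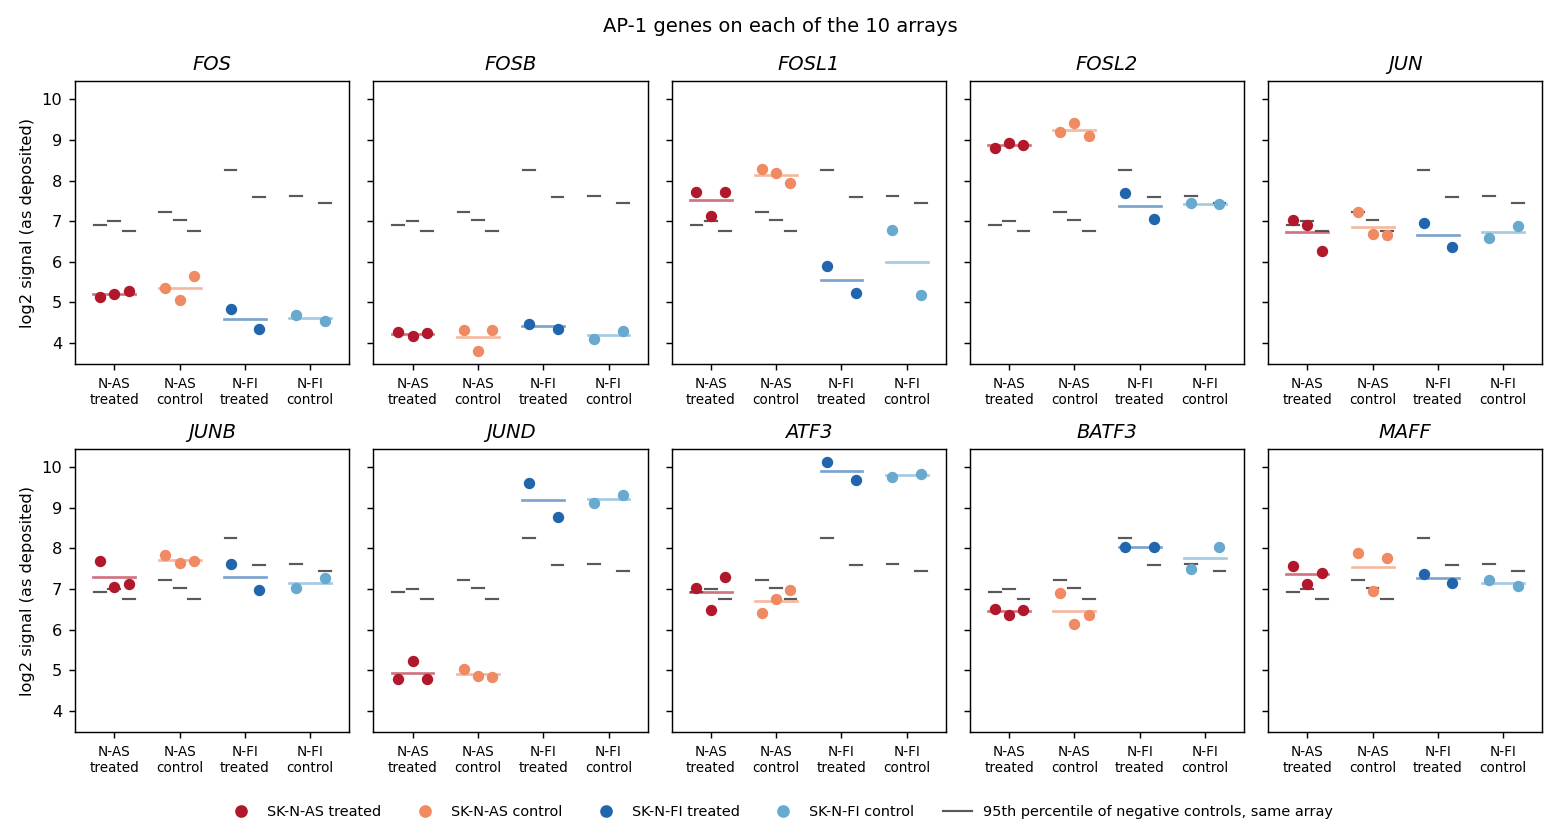
Log2 signal as deposited (vertical axis) of the 10 AP-1 genes in each array (points), by group (horizontal axis), with group means as coloured lines and each array's negative control threshold as a short grey line. FOSL1 and FOSL2 lie above the threshold on all 6 SK-N-AS arrays and below it on all 4 SK-N-FI arrays, and JUND does the opposite.

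The first comparison asked which AP-1 genes differed in SK-N-AS cells after the conjugate. None passed the test, although both Fos-related genes had lower values on every treated array than on any control array. limma called 0 of 21448 probe sets (0.0%) and 0 of 10 AP-1 genes, and 2.6% of probe sets and 1 AP-1 gene (FOSL1) had an unadjusted p under 0.05. Of the 10 genes, 7 had a lower mean in treated cells and 3 a higher one, with a median log2 difference of -0.13, against -0.0047 over all probe sets. After quantile normalization limma again called 0.0% of probe sets and 0 AP-1 genes, and 2.79% of probe sets and 1 AP-1 gene had an unadjusted p under 0.05.

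Among the Fos genes, FOSL1, which encodes Fra-1, a Fos protein without the transactivation domain of c-Fos, had log2 signals of 7.71, 7.11 and 7.71 in treated SK-N-AS arrays, against 8.28, 8.20 and 7.94 in control arrays. The groups did not overlap, and treated array 29 was the lowest. The log2 difference was -0.63 ± 0.24 (SE, n = 3 per group, 95% interval -1.16 to -0.09; limma adjusted p = 1.00, unadjusted p = 0.0262). Leaving out 1 array at a time moved it between -0.73 and -0.43. The unadjusted p was 0.0702 without control array 25, 0.0660 without control array 26, 0.107 without treated array 29 and 0.106 in the limma fit of all 10 arrays. It lay at the 0.872 percentile of the differences of all probe sets.

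FOSL2, encoding Fra-2, had 8.81, 8.92 and 8.88 in treated SK-N-AS arrays, against 9.21, 9.42 and 9.10 in control arrays. Again the groups did not overlap, and the treated arrays differed by little among themselves. Its log2 difference was -0.37 ± 0.19 (SE, n = 3 per group; limma adjusted p = 1.00, unadjusted p = 0.0893). Over all probe sets, 4.02% were lower on every treated than on any control array and 3.29% higher, so that 2 of 10 AP-1 genes stand against a background of 4.02%. After quantile normalization the same count of 2 AP-1 genes stood against 4.08% lower and 3.33% higher. FOS and FOSB, below the negative control threshold throughout, differed by -0.14 and 0.09.

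Among the Jun genes, JUNB had 7.69, 7.05 and 7.12 in treated SK-N-AS arrays, against 7.85, 7.64 and 7.68 in control arrays. JunB is an AP-1 subunit that can oppose c-Jun. Treated arrays 29 and 30 lay under every control array, but treated array 28 lay among them, and the log2 difference of -0.44 ± 0.23 (SE, n = 3 per group) did not pass (limma adjusted p = 1.00, unadjusted p = 0.0931). JUN, encoding c-Jun, had 7.03, 6.90 and 6.27 in treated and 7.23, 6.69 and 6.66 in control arrays, with overlapping groups and a log2 difference of -0.13. JUND differed by 0.03 at a signal below background.

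The remaining bZIP genes overlapped between treated and control SK-N-AS arrays. ATF3, a stress-induced factor that represses or activates according to its partner, had 7.03, 6.48 and 7.30 in treated and 6.42, 6.75 and 6.98 in control arrays, a log2 difference of 0.22. This was the largest positive difference among the 10 genes, and the sign turned with array weights (-0.05). It lay between 0.036 (without treated array 30) and 0.45 (without treated array 29) when 1 array was left out. MAFF, a small Maf protein that lacks a transactivation domain and pairs with cap'n'collar factors, had 7.56, 7.12 and 7.40 in treated and 7.88, 6.95 and 7.77 in control arrays. Control array 26 was the low one, and the log2 difference was -0.17. BATF3, a Jun partner best known in dendritic cells, differed by -0.02 and was below background on every SK-N-AS array. For 9 of 10 genes the 95% interval of the SK-N-AS difference excluded a 2-fold change of signal either way, FOSL1 being the exception. FOS, FOSB, JUND and BATF3 were above background on 0 of 6 SK-N-AS arrays, JUN on 2 of 6, ATF3 on 3 of 6 and MAFF on 5 of 6. The intervals of these genes describe a signal at or near background on some or all arrays and do not bound a change of transcript.

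The same comparison in SK-N-FI also gave no call. By limma, 0.0% of the 21448 probe sets and 0 of 10 AP-1 genes passed, with 2.85% of probe sets and 0 AP-1 genes at an unadjusted p under 0.05. Means were higher in treated cells for 5 genes and lower for 5, with log2 differences between -0.42 and 0.28 and a median of 0.05, against -0.01 over all probe sets. After quantile normalization 0 genes of the family passed, and 3.11% of probe sets and 0 AP-1 genes had an unadjusted p under 0.05. Only JUND and ATF3 were above background on every array, so that the other 8 intervals describe a signal at or near background.

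JUND, whose protein is the most steadily expressed Jun subunit in many cell types, had 9.61 and 8.78 in treated SK-N-FI arrays, against 9.12 and 9.32 in control arrays. The treated arrays lay on either side of both controls, and the log2 difference was -0.03 ± 0.30 (SE, n = 2 per group, 95% interval -0.74 to 0.68; limma adjusted p = 1.00). ATF3 had 10.14 and 9.70 in treated and 9.77 and 9.84 in control arrays, likewise overlapping, with a difference of 0.11 ± 0.24 (SE, n = 2 per group, 95% interval -0.44 to 0.67; limma adjusted p = 1.00). BATF3 had 8.04 and 8.03 in treated and 7.48 and 8.04 in control arrays, and control array 1 alone was low. FOSL1 had 5.89 and 5.23 in treated and 6.79 and 5.17 in control arrays, all below background. Its difference of -0.42 ± 0.50 (SE, n = 2 per group) had the widest interval of the 10 genes (-1.60 to 0.75) and became 0.38 without control array 1 and -1.23 without control array 2.

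FOSB was the one gene without overlap in SK-N-FI, at 4.47 and 4.34 in treated and 4.10 and 4.29 in control arrays, all far below the negative control threshold. Without overlap, 13.8% of all probe sets were higher in treated and 14.0% lower. After quantile normalization FOSB overlapped as well, so that 0 AP-1 genes were without overlap, against 14.5% of probe sets higher and 13.6% lower. The treated SK-N-FI arrays differed from each other across the family. All 10 AP-1 genes read higher on treated array 1 than on treated array 2, by 0.01 to 0.83 (median 0.53, log2), while 46.8% of all probe sets did so. The negative control threshold was also higher on array 1, at 8.26 against 7.59 on array 2. The part of that array difference in the SK-N-FI values was not tested.

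**Figure D2:**
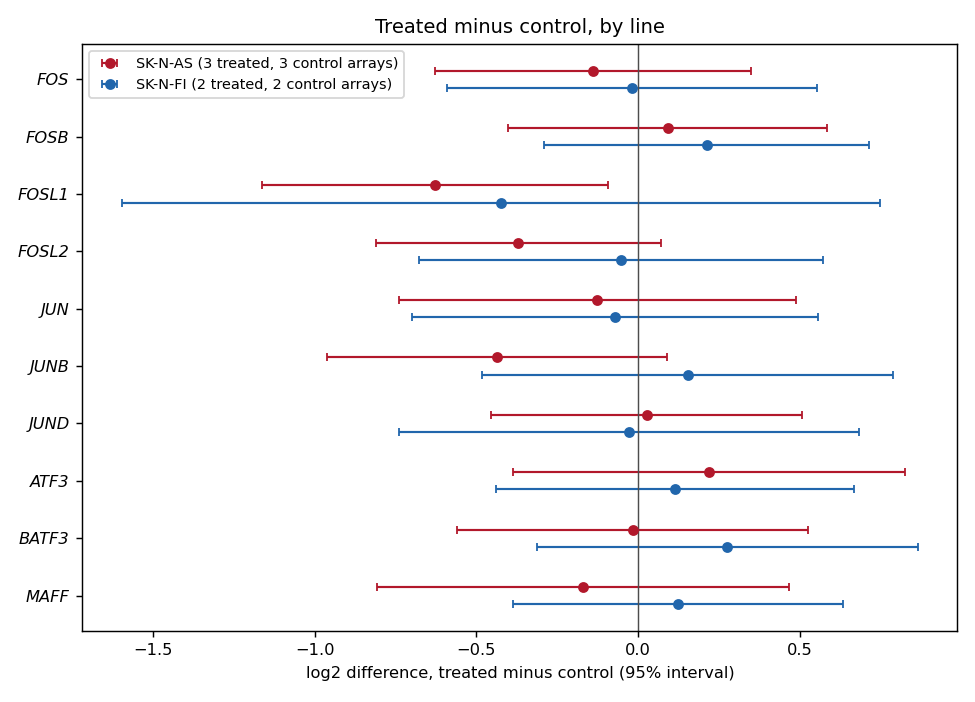
Log2 difference, treated minus control (horizontal axis), of each AP-1 gene in SK-N-AS (red) and SK-N-FI (blue), with 95% limma intervals as bars. FOSL1 in SK-N-AS is the only interval drawn that leaves out 0, at -1.16 to -0.09; its adjusted p was 1.00, and the unadjusted p was 0.106 in the limma fit of all 10 arrays.

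Whether the lines responded differently was tested by the difference of the treatment effects, SK-N-AS minus SK-N-FI. The interaction contrast passed for 0.0% of probe sets and 0 of 10 AP-1 genes in limma, with 2.13% of probe sets and 0 AP-1 genes at an unadjusted p under 0.05. The largest difference among the family was that of JUNB, at -0.59 ± 0.38 (SE; limma adjusted p = 1.00, unadjusted p = 0.144), from -0.44 in SK-N-AS and 0.15 in SK-N-FI. It was -0.27 without SK-N-FI treated array 1 and -0.91 without SK-N-FI treated array 2, the ends of the range over all 10 arrays left out in turn. After quantile normalization 0 AP-1 genes and 1.8% of probe sets had an unadjusted p under 0.05. For FOSL1 it was -0.20 ± 0.57 and for FOSL2 -0.32 ± 0.33 (SE).

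Untreated cells of the lines were compared next, as SK-N-AS minus SK-N-FI. FOSL1 and FOSL2 were higher in SK-N-AS, and JUND and ATF3 were lower, in each scaling. Among all probe sets 59.3% were called as deposited, 11.5% higher and 47.8% lower in SK-N-AS, with a median log2 difference of -0.61. After quantile normalization 46.7% were called, 23.9% higher and 22.8% lower, with a median of 0.03. Of the 10 AP-1 genes, 6 were called as deposited (3 higher and 3 lower in SK-N-AS) and 8 after quantile normalization (6 higher and 2 lower). A share of 6 in 10 is near the background of 59.3% as deposited. After quantile normalization 8 in 10 stood against 46.7%, and 6 in 10 called higher against 23.9%. The 6 include FOS, below background on every array, and JUN, above it on 1 of 3 SK-N-AS control arrays. At an unadjusted p under 0.05 the counts were 6 AP-1 genes and 63.2% of probe sets as deposited, and 8 AP-1 genes and 53.4% of probe sets after quantile normalization. As deposited, 4 AP-1 genes were higher and 3 lower on every SK-N-AS control array than on any SK-N-FI control array, against 17.2% and 56.0% of probe sets. After quantile normalization 6 were higher and 2 lower, against 34.1% and 32.3%. The median AP-1 difference was 0.26 as deposited and 1.16 after quantile normalization.

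FOSL2 averaged 9.24 ± 0.16 in SK-N-AS controls (SD, n = 3) and 7.43 ± 0.02 in SK-N-FI controls (SD, n = 2). The lowest of 6 SK-N-AS arrays, 8.81, lay over the highest of 4 SK-N-FI arrays, 7.70. The log2 difference was 1.81 ± 0.24 as deposited (SE; limma adjusted p = 2.78e-05) and 3.18 ± 0.22 after quantile normalization (adjusted p = 3.89e-07). Since SK-N-FI was not above background, FOSL2 was at least 3.30-fold higher in SK-N-AS as deposited, and at least 8.62-fold higher after quantile normalization. For each such bound the dimmer line was given its background level on every array, or the measured signal where that was larger. The bounds compare means of the control arrays and make no allowance for spread among arrays. Each holds only for its own scaling.

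FOSL1 averaged 8.14 ± 0.18 in SK-N-AS controls (SD, n = 3) and 5.98 ± 1.14 in SK-N-FI controls (SD, n = 2). All 6 SK-N-AS arrays (7.11 to 8.28) lay over all 4 SK-N-FI arrays (5.17 to 6.79). The log2 difference was 2.16 ± 0.40 as deposited (SE; limma adjusted p = 0.000518) and 3.18 ± 0.36 after quantile normalization (adjusted p = 2.40e-05). It was 2.97 without SK-N-FI control array 1 and 1.35 without SK-N-FI control array 2. The bounds were at least 1.54-fold as deposited and at least 3.99-fold after quantile normalization. FOS averaged 5.35 in SK-N-AS controls and 4.61 in SK-N-FI controls, with both lines below background. Its log2 difference was 1.09 after quantile normalization (limma adjusted p = 0.00482). As deposited it was 0.74 and was also called (limma adjusted p = 0.0174). That call ended without SK-N-FI control array 1 (adjusted p = 0.0517), SK-N-FI control array 2 (0.103) or SK-N-AS control array 27 (0.0644). FOSB, at 4.14 in SK-N-AS and 4.19 in SK-N-FI controls, was not called in either of these scalings and was called higher in SK-N-AS after median scaling (log2 difference 0.78), likewise below background.

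JUND averaged 4.90 ± 0.11 in SK-N-AS controls (SD, n = 3) and 9.22 ± 0.15 in SK-N-FI controls (SD, n = 2). The highest SK-N-AS array, at 5.22, lay far under the lowest SK-N-FI array, at 8.78. The log2 difference was -4.32 ± 0.27 as deposited (SE; limma adjusted p = 5.91e-08) and -3.22 ± 0.26 after quantile normalization (adjusted p = 1.23e-06). Because SK-N-AS was below background, the bound was at least 4.64-fold lower in SK-N-AS as deposited and at least 1.56-fold lower after quantile normalization. ATF3 averaged 6.72 ± 0.28 in SK-N-AS controls (SD, n = 3) and 9.81 ± 0.06 in SK-N-FI controls (SD, n = 2), with 1 of 3 SK-N-AS control arrays above background. Its log2 difference was -3.09 ± 0.28 as deposited (SE; limma adjusted p = 1.38e-06) and -1.54 ± 0.28 after quantile normalization (adjusted p = 0.000849). Against a threshold of a 2-fold difference, ATF3 passed as deposited but not after quantile normalization (limma adjusted p = 0.203).

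The calls of JUNB, MAFF, JUN and BATF3 turned on the scaling. JUNB averaged 7.72 ± 0.11 in SK-N-AS controls (SD, n = 3) and 7.15 ± 0.17 in SK-N-FI controls (SD, n = 2), a log2 difference of 0.58 as deposited (limma adjusted p = 0.0819) and of 1.86 after quantile normalization (adjusted p = 0.000183). MAFF differed by 0.39 as deposited (adjusted p = 0.261, or 0.0359 without SK-N-AS control array 26) and 1.64 after quantile normalization (adjusted p = 0.00110). JUN differed by 0.13 (limma adjusted p = 0.722) and 1.24 (adjusted p = 0.0105). It was above background on 1 of 3 SK-N-AS and 0 of 2 SK-N-FI control arrays. BATF3 was called lower in SK-N-AS as deposited, with a log2 difference of -1.29 (limma adjusted p = 0.00101), and after quantile normalization the difference was -0.02 (adjusted p = 0.955).

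**Figure D3:**
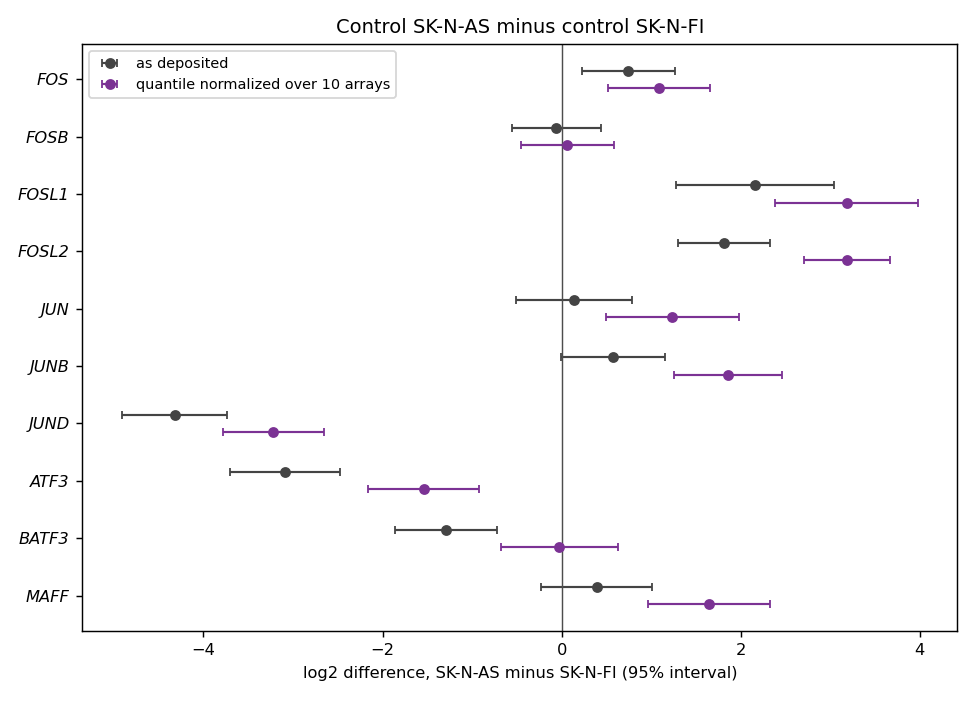
Log2 difference between untreated cells, SK-N-AS minus SK-N-FI (horizontal axis), of each AP-1 gene as deposited (dark grey) and after quantile normalization over all 10 arrays (purple), with 95% limma intervals as bars. FOSL1 and FOSL2 stay above 0 and JUND and ATF3 below 0 in both scalings, while JUN, JUNB, MAFF and BATF3 change their side of the threshold.

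The start-site windows of the genes that separated the lines are shown because AP-1 proteins are known to act on promoters of their own family. RefSeq windows of 300 bases around the start site, written in the direction of transcription (GRCh38.p14), were matched by symbol for 8 of the 10 genes, FOSL1 and BATF3 being without an entry. The windows are chr2:28392608-28392907 on the plus strand for FOSL2, chr19:18281573-18281872 on the minus strand for JUND and chr1:212565157-212565456 on the plus strand for ATF3. Capitals mark a match on either strand to TGACTCA, to TGACGTCA, or to TGACATCA, the variant known from the JUN promoter.
FOSL2: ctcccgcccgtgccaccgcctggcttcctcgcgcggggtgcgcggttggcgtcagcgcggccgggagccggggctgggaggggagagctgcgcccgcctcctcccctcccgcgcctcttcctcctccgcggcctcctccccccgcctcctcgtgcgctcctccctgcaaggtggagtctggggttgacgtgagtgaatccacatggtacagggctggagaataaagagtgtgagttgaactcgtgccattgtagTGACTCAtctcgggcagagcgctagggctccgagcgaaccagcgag
JUND: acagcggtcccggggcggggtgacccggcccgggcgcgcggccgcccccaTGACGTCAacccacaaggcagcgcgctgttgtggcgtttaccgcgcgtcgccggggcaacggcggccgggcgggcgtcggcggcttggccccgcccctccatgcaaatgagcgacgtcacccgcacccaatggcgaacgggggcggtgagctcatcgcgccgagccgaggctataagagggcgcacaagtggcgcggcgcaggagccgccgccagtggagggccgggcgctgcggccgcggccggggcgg
ATF3: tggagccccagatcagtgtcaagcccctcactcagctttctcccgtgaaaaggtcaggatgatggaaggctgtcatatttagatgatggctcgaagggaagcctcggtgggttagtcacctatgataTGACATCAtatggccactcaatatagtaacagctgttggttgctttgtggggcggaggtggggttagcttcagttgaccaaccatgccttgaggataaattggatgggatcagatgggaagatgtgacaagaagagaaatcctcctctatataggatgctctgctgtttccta

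The FOSL2 window, from a gene higher in SK-N-AS, held TGACTCA, its first base at position 4 counted from the start site as 0. These letters were found in 4.95% of 35116 promoter windows of the same length. The JUND window, from a gene lower in SK-N-AS, held TGACGTCA at position -200 (1.85% of windows), and so did the first MAFF window at position -54. The first ATF3 window held TGACATCA at position -123, and the JUN window held it at position -67 (2.61% of windows). The FOS, FOSB and JUNB windows and the second windows of ATF3 and MAFF held none of the 3 motifs. These matches describe letters in the windows and not binding, and a link between a motif and the direction of a difference was not tested.

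Genes known as AP-1 targets were set beside the family. Of 20 measured, limma called 9 higher and 5 lower in untreated SK-N-AS than in untreated SK-N-FI as deposited, where 11.5% of all probe sets were called higher and 47.8% lower. After quantile normalization 10 were called higher and 3 lower, against 23.9% and 22.8% of all probe sets. The list median was 0.43 as deposited and 0.82 after quantile normalization, against -0.61 and 0.03 over all probe sets. CXCL8, a neutrophil chemokine, averaged 12.8 ± 0.44 in SK-N-AS controls (SD, n = 3) and 4.96 ± 0.46 in SK-N-FI controls (SD, n = 2), and was at least 39.5-fold higher in SK-N-AS as deposited and at least 85.1-fold higher after quantile normalization (limma adjusted p = 9.27e-09 as deposited). MMP14, a membrane-bound matrix metalloprotease, averaged 10.9 ± 0.13 in SK-N-AS controls (SD, n = 3) and 3.26 ± 0.07 in SK-N-FI controls (SD, n = 2), with bounds of at least 10.7-fold and at least 25.9-fold higher in the same order of scalings. HMOX1, haem oxygenase, was at least 1.53-fold and at least 3.98-fold higher. MMP1, the interstitial collagenase, differed by 3.03 on the log2 scale as deposited and by 4.33 after quantile normalization. These 4 genes were above background on every SK-N-AS control array, and on 0 of 2 SK-N-FI control arrays except MMP1 on 1. CD44, CCND1 and EZR were the genes of the list called lower in SK-N-AS in both scalings.

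Of 26 immediate early and serum response genes, limma called 6 higher and 13 lower in untreated SK-N-AS as deposited, beside 11.5% and 47.8% of all probe sets. After quantile normalization 8 were called higher and 7 lower, beside 23.9% and 22.8%, and the calls to lower were near the background in each scaling. EGR1, a zinc finger factor switched on by the same kinases as FOS, averaged 6.18 ± 0.15 in SK-N-AS controls (SD, n = 3) and 11.3 ± 0.09 in SK-N-FI controls (SD, n = 2), and was not above background on any SK-N-AS control array. It was at least 19.2-fold lower in SK-N-AS as deposited and at least 6.38-fold lower after quantile normalization (limma adjusted p = 2.26e-09 as deposited). DUSP5, a nuclear ERK phosphatase, was likewise below background in SK-N-AS controls, and at least 3.70-fold and at least 1.27-fold lower there. IER2 and DUSP4, another MAP kinase phosphatase, were above background in both lines. On the log2 scale they differed by -3.12 and -2.81 as deposited, and by -1.45 and -2.28 after quantile normalization. All 4 were called in both scalings. So were the 6 genes called higher as deposited, which were PPP1R15A, IER3, DUSP1, KLF10, KLF4 and ZFP36. PPP1R15A differed by 2.71 as deposited and 3.93 after quantile normalization, and KLF4 and ZFP36 were below background. EGR1 was above background in SK-N-FI, where FOS and FOSB were not.

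Of 15 bZIP partners and relatives, limma called 2 higher and 7 lower in untreated SK-N-AS as deposited, near the 11.5% and 47.8% of all probe sets. After quantile normalization 4 were called higher and 4 lower, near the 23.9% and 22.8% of all probe sets. JDP2, a Jun dimerization protein that represses AP-1 sites, averaged 8.53 ± 0.15 in SK-N-AS controls (SD, n = 3) and 5.33 ± 0.28 in SK-N-FI controls (SD, n = 2), where it was not above background. It was at least 2.01-fold higher in SK-N-AS as deposited and at least 5.30-fold higher after quantile normalization (limma adjusted p = 9.16e-07 as deposited). ATF2, a Jun partner at TGACGTCA-type sites, differed by -3.54 and -2.12 on the log2 scale, and CREB1, which binds the cyclic AMP response element, by -3.01 and -1.35 in the same order of scalings. BACH2 averaged 3.02 in SK-N-AS controls and 6.89 in SK-N-FI controls, below background in both lines.

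Of 13 kinases upstream of AP-1, limma called 1 higher and 8 lower in untreated SK-N-AS as deposited, beside 11.5% and 47.8% of all probe sets. After quantile normalization 5 were called higher and 3 lower, beside 23.9% and 22.8%. MAP2K6, which activates p38, averaged 6.56 ± 0.22 in SK-N-AS controls (SD, n = 3) and 11.7 ± 0.26 in SK-N-FI controls (SD, n = 2), a log2 difference of -5.10 (limma adjusted p = 4.63e-09). MAPK10, the neuronal Jun kinase JNK3, differed by -4.21, and these 2 kinases were each above background on 1 of 3 SK-N-AS control arrays. MAPK7, encoding ERK5, was above background on none of them, and at least 4.76-fold lower in SK-N-AS as deposited and at least 1.60-fold lower after quantile normalization. All 3 were also called lower in SK-N-AS after quantile normalization, with log2 differences of -3.64 for MAP2K6, -2.63 for MAPK10 and -1.70 for MAPK7. MAP3K5 averaged 5.37 in SK-N-AS controls and 3.71 in SK-N-FI controls, below background in both lines.

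**Figure D4:**
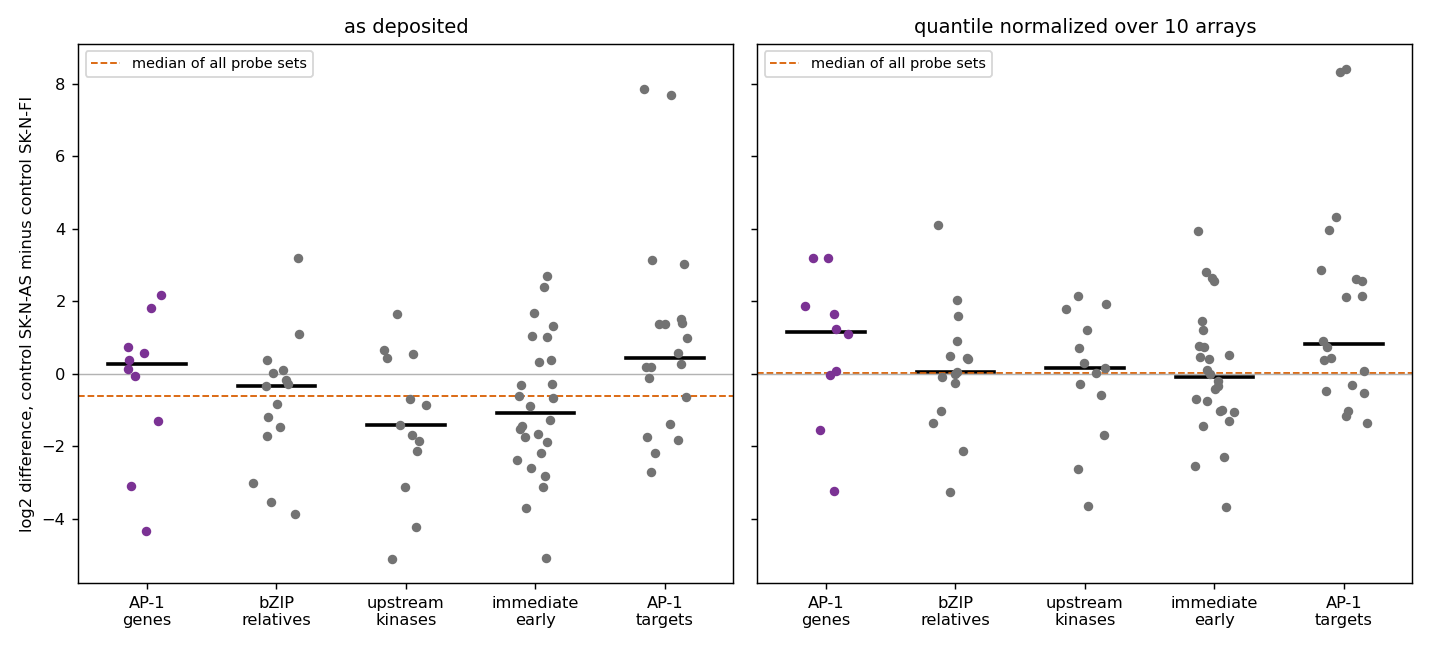
Log2 difference between untreated cells, SK-N-AS minus SK-N-FI (vertical axis), of each AP-1 gene (purple points) and of the genes of 4 related lists (grey points), as deposited (left) and after quantile normalization over all 10 arrays (right), with list medians as black bars and the median of all probe sets as a dashed orange line. CXCL8 and MMP14 are the highest points among AP-1 targets, and the medians of the kinase and immediate early lists move up to near 0 in the right panel.

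After treatment, 0 genes of any of these 4 lists were called by limma in either line, and 2 of the measured genes had an unadjusted p under 0.05 in SK-N-AS and 0 in SK-N-FI, beside 2.6% and 2.85% of all probe sets. The 2 genes were MAP2K6, with a log2 difference of -0.54 ± 0.21 (SE, n = 3 per group; limma adjusted p = 1.00), and ELK1, a serum response factor partner, with -0.83 ± 0.33 (SE, n = 3 per group; limma adjusted p = 1.00). MAP2K6 was above background on 0 of 3 treated and 1 of 3 control SK-N-AS arrays, and ELK1 on 2 of 3 and 3 of 3. The list medians in SK-N-AS were -0.15 for kinases, -0.13 for immediate early genes, -0.09 for AP-1 targets and 0.06 for bZIP relatives. In SK-N-FI they were 0.03, 0.11, -0.02 and -0.02 in the same order. HMOX1 differed by -0.42 in SK-N-AS, NR4A1 by 0.38 and CREB1 by 0.33 in SK-N-FI, and MMP9 by -0.36 in SK-N-AS below background, without passing the test.

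Genes with the most similar level pattern were sought for JUND and FOSL2, as the root mean square difference of log2 signals over the 10 arrays after centring each gene on its own mean. The arrays fall into 2 lines, and the measure mostly follows the step between them. For JUND the closest of 17686 genes were GTSE1 (0.17), VCX, ZNF676, PCDH17 and NEFM (0.23), against a median of 1.83 over all genes. NEFM, a neurofilament subunit of neurons, averaged 10.9 in SK-N-AS controls and 15.3 in SK-N-FI controls. For FOSL2 they were PDZRN3 (0.15), LAMTOR2, UCN, ZMIZ2 and GNAT2 (0.20), against a median of 1.19.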

How the data were processed

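Total RNA was biotin-labelled by a whole-transcript sense target protocol, per the labels' protocols. The authors deposited 1 log2 value per probe set and array. RMA, and version 4.0.1.36 of Transcriptome Analysis Console, are listed in the submitters' processing notes. RMA equalises distributions among arrays normalized together, which removes a change shared by most genes. Array medians were alike within a line and not between lines. The build behind the probe sets is not given in the sources used here. The table held 24351 probe sets, 2903 of them controls, and 17709 of the 21448 others had a symbol. The number of arrays limits the precision.

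limma 3.58.1 in R 4.3.3 (lmFit, eBayes, no covariate) was fitted per line for treatment, and over 10 arrays in 4 groups for the line and interaction contrasts, with Benjamini-Hochberg adjustment over 21448 probe sets at 0.05. Fits were tested on simulated data. For symbols with several probe sets the brightest was used.

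The AP-1 genes and lists were chosen with earlier results of these data known. Of each list, up to 4 genes with the largest control difference as deposited, among those called in both scalings, were named. Up to 2 with the smallest p per treatment comparison were also named. CD44, CCND1, EZR and the immediate early genes called higher in SK-N-AS were named after their values were seen. Similar genes (5 each) were taken for the 2 AP-1 genes with the largest control difference after quantile normalization. Alternatives were scaling, background filter, eBayes settings, array weights, shared or separate fits, a 2-fold threshold, a replicate block in SK-N-FI and each array left out.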

Additional observations from a re-analysis of the deposited data

How the results depend on the processing

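No AP-1 gene and no probe set was called for treatment in either line, or for the difference of effects, under any alternative run. Each AP-1 gene has 1 probe set, so listing every probe set of a gene gave nothing further. The replicate block in SK-N-FI gave 0 calls, with an unadjusted p under 0.05 for 471 probe sets, or 611 when the block was left out. Deviations of same-numbered arrays correlated at -0.17, and a crossed replicate block, chosen after seeing the data, gave 0 calls and 924 such probe sets. The line comparison called 12726 probe sets, and 8141 when only those above the negative control threshold were tested. It called 6030 against a 2-fold threshold and 3194 with quantile normalization as well, a setting chosen after seeing the data. Array weights turned the SK-N-AS treatment difference of ATF3 (-0.052), BATF3 (0.031) and JUN (0.025), and the difference of effects of ATF3 (-0.21) and JUN (0.12). The control difference of FOSB turned to 0.064 with quantile normalization, also with the 2-fold threshold, and to 0.78 with median scaling. The cause was not tested. Leaving out 1 array at a time gave 10722 to 12840 called probe sets and 5 to 7 called AP-1 genes between the lines. A group left with 1 array is assumed to vary like the others. For the SK-N-AS treatment difference the log2 ranges that cross 0 were FOS -0.28 to 0.0036, FOSB -0.083 to 0.18, JUN -0.27 to 0.11, JUND -0.12 to 0.10, BATF3 -0.18 to 0.20 and MAFF -0.46 to 0.0019. For the SK-N-FI treatment difference the log2 ranges that cross 0 were FOS -0.26 to 0.22, FOSL1 -1.23 to 0.38, FOSL2 -0.38 to 0.27, JUN -0.36 to 0.22, JUNB -0.16 to 0.47, JUND -0.44 to 0.39, ATF3 -0.10 to 0.33 and BATF3 -0.0015 to 0.55. For the difference of effects the log2 ranges that cross 0 were FOS -0.36 to 0.12, FOSL1 -1.01 to 0.60, FOSL2 -0.64 to 0.0068, JUN -0.34 to 0.23, JUND -0.36 to 0.47 and ATF3 -0.11 to 0.33. For the control difference the log2 ranges that cross 0 were FOSB -0.15 to 0.11 and JUN -0.051 to 0.29.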
